A study of Mus musculus with 10 samples.

Results

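The 10 genes described here encode molecular chaperones: Hspa1a, Hspa1b, Hspa8, Hspa5, Hsp90aa1, Hsp90ab1, Hsph1, Dnajb1, Hspb1 and Hspd1. They were a fixed list of gene symbols, each matched to its mouse Ensembl identifier, and all 10 of 10 were found among the 49662 genes of the table. The members were chosen with the group counts of these data known, among them those of Hspa1a and Hspa1b, and so selected on values of the same comparisons, so the ratios of the members between groups are given as a description, with no test. The data are RNA-seq of embryonic mouse hearts at E12.5 in the 129/Sv strain, from wild-type females bred with wild-type males or with males carrying the Nkx2-5 R52G knock-in allele. The wild-normoxia group (4 samples) holds wild-type hearts at normal oxygen. The wild-hypoxia group (3 samples) holds wild-type hearts from mothers kept at 14% oxygen from gestation day 10. The mutant-normoxia group (3 samples) holds hearts heterozygous for the knock-in allele at normal oxygen, and as a germline allele it is not limited to the heart. Each sample pooled 2 to 3 hearts, and mutants under hypoxia are not analysed here.

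Chaperones bind unfolded or partly folded proteins and keep them from aggregating. HSP70 proteins bind and release their clients in an ATP cycle that HSP40 proteins such as Dnajb1 start and HSP110 proteins such as Hsph1 reset, and HSP90 proteins take over many clients, among them kinases and steroid receptors. When unfolded proteins accumulate, heat shock factor 1 (Hsf1) is released from chaperones, forms trimers and binds heat shock elements, which are inverted repeats of the letters GAA, in the promoters of inducible members such as Hspa1a and Hspa1b. Other members, such as Hspa8 and Hsp90ab1, are made all the time in most cells. Muscle cells use HSP70 and HSP90 proteins to fold myosin and other sarcomere proteins.

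Heat shock elements lie in the promoters of many inducible chaperone genes, and RefSeq held a window upstream of the start for 7 of the 10 members (build GRCm38.p6). The 250 bases before the start were searched for 2 facing repeats in either order (GAANNTTC or TTCNNGAA, both their own reverse complement). They were found in 12.8% of 32851 windows of all genes. Counting a member if any of its windows matched, they were found in 5 members, Hspa1a, Hspa1b, Hsph1, Hspb1 and Hspd1. Hsph1, Dnajb1 and Hspd1 had 2 windows each, so the share of windows and the count of members are unlike measures. The 150 bases before the start are shown for the 2 copies of inducible HSP70, because these copies gave the results below, and for Hspb1, Hspd1 and Hspa5, whose ratios between groups stayed near 1 (Hspb1 and Hspd1 carry the same element). Capitals mark the paired repeats and, in Hspa5, the ER stress element. The windows lie at chr17:34972157-34972306 (minus strand), chr17:34959239-34959388 (minus), chr5:135887769-135887918 (plus), chr1:55087933-55088082 (minus, the second of 2 starts) and chr2:34771940-34772089 (plus).
Hspa1a: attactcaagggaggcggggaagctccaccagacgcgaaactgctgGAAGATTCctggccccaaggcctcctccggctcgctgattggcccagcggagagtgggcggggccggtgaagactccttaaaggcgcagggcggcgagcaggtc
Hspa1b: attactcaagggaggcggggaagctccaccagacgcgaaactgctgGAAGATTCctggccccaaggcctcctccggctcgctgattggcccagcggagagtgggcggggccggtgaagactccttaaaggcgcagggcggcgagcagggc
Hspb1: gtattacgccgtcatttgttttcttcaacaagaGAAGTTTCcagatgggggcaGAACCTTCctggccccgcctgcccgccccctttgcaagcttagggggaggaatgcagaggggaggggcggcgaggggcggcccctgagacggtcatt
Hspd1: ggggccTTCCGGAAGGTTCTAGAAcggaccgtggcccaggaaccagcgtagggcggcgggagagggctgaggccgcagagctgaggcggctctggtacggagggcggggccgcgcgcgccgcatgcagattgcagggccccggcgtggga
Hspa5: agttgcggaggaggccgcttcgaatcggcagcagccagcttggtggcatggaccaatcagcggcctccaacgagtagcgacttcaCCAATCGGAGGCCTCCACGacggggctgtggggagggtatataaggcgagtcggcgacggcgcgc

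The windows of Hspa1a and Hspa1b differed at 3 of 250 bases, at positions -207, -204 and -2 counted back from the start, and both held the pair at -104. Hspb1 held 2 pairs, beginning at -117 and -97. Hspd1 held overlapping pairs that make a run of 3 repeats (GAANNTTCNNGAA or TTCNNGAANNTTC) beginning at -144 and again at -139, a run found in 0.466% of all windows, and the window of its divergent neighbour Hspe1 held such runs too. The ER stress element (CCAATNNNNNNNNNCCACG on either strand), which controls chaperones of the endoplasmic reticulum, was found in 0.113% of all windows and, among the members, in Hspa5 at -65. The core of the hypoxia response element (ACGTG or CACGT) was found in 16.6% of all windows and in those of 4 of the 7 members, Hspa5 (at -155), Hsph1 (at -19 and -18 of its second start), Dnajb1 (at -59 of its second start) and Hspd1 (at -80 and -79 of its first start). The windows of Hspa1a, Hspa1b and Hspb1 did not hold it. These matches describe letters and say nothing of binding. For Hspa8, Hsp90aa1 and Hsp90ab1 no window is shown.

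In the deposited table each gene has 1 estimated count and 1 model variance per group, and no sample has a value of its own. Group totals were 18.5 M (wild-normoxia), 19.6 M (wild-hypoxia) and 18.7 M (mutant-normoxia) fragments. The error given below is therefore a model standard error, from the deposited variance divided by the number of samples, and the spread between samples could not be examined. The 12 cardiomyocyte markers were abundant in all groups, led by Actc1 (cardiac actin) at 167605 to 187256 fragments.

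Hsp90ab1 and Hspa5 were the most abundant members, and the order of levels was the same in all 3 groups. Per kilobase of transcript, Hsp90ab1, the constitutive cytosolic HSP90, was at 21414 (wild-normoxia), 22181 (wild-hypoxia) and 21529 (mutant-normoxia) fragments. Hspa5 (BiP, the HSP70 of the endoplasmic reticulum) followed at 8522, 7939.6 and 8317 fragments per kilobase in the same order of groups. Hspd1 (HSP60, the mitochondrial chaperonin) was at 1748, 1620.2 and 1727, and Hspb1 (HSP27, a small heat shock protein) at 947, 1068 and 983 fragments per kilobase. Dnajb1, Hsp90aa1 (the inducible HSP90) and Hsph1 lay between 380.3 and 668 fragments per kilobase in all groups, and Hspa8, the constitutive HSP70, between 200.5 and 226. The 2 inducible HSP70 copies were last, at 13.7 (Hspa1a) and 12.2 (Hspa1b) fragments per kilobase in wild-normoxia. Neighbours in this order differed by over 2 model standard errors, except Dnajb1 and Hsp90aa1 and except Hspa1a and Hspa1b, which did not in any group.

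**Figure D1:**
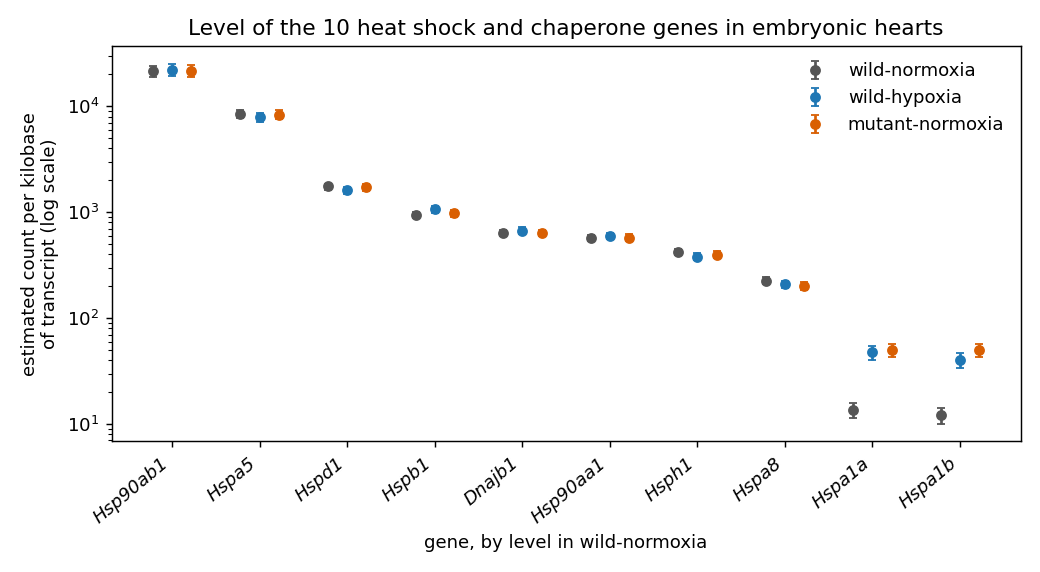
Estimated count per kilobase of the longest annotated transcript (log axis) for the 10 genes, by group. Points are group values and bars 1 model standard error. The order of the genes is the same in the 3 groups, and Hspa1a and Hspa1b alone have a wild-normoxia point well below the other 2 groups.

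Hspa1a and Hspa1b were both lowest in wild-normoxia. The count of Hspa1a was 39.9 ± 6.60 fragments (model standard error) in wild-normoxia, 139 ± 20.6 under hypoxia and 147 ± 21.0 in the mutant. The count of Hspa1b was 34.2 ± 5.85, 113 ± 17.2 and 139 ± 19.8 fragments in the same order. Both genes were thus low in wild-normoxia and 3 to 4 times as high in the other groups. The ratios to wild-normoxia were 3.41-fold (Hspa1a) and 3.24-fold (Hspa1b) in wild-hypoxia, and 3.62-fold and 3.98-fold in mutant-normoxia. For the 2 copies summed, the count was 74.2 ± 8.82 (wild-normoxia), 252 ± 26.8 (wild-hypoxia) and 286 ± 28.9 (mutant-normoxia) fragments, which is 3.36-fold and 3.82-fold (log2 1.75 ± 0.23 and 1.93 ± 0.22). Both ratios use the same wild-normoxia value, so they are not independent of each other. The comparison of wild-hypoxia with mutant-normoxia does not use it, and there the summed copies were at a log2 ratio of -0.19 ± 0.21, within 1 model standard error. Relative to Hspa8 per kilobase, Hspa1a was lower by 4.05 ± 0.26 on the log2 scale in wild-normoxia, by 2.14 ± 0.25 in wild-hypoxia and by 1.99 ± 0.24 in mutant-normoxia. In bulk hearts, more cells with these transcripts and more transcript per cell cannot be told apart.

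The copies are neighbours on chromosome 17, and most of their length cannot be told apart with reads of 40 bases. Their coding sequences were 99.4% identical, against 82.8% between Hspa1a and Hspa1l, the neighbouring HSP70 gene expressed in testis, and 73.9% between Hspa1a and Hspa8. In NCBIM37 (mm9), Hspa1a (ENSMUSG00000091971) spans chr17:35106144-35109069 and Hspa1b (ENSMUSG00000090877) chr17:35093381-35096183, both on the minus strand and both with 1 exon. The other members lie elsewhere in that build (Hspa8 chr9:40609067-40613283, Hspa5 chr2:34627490-34632051, Hsp90aa1 chr12:111928815-111940938, Hsp90ab1 chr17:45704724-45710220, Hsph1 chr5:150416862-150438951, Dnajb1 chr8:86132074-86135801, Hspb1 chr5:136363789-136365433 and Hspd1 chr1:55134679-55145087). Of the 40-base windows of the transcript, 62.0% of those of Hspa1a and 65.0% of those of Hspa1b also occurred in the other copy, while 1044 windows of Hspa1a and 950 of Hspa1b occurred nowhere else on the chromosomes. After the coding sequence, 0% of the Hspa1a windows and 2.98% of the Hspa1b windows occurred elsewhere. Hspa1a made up 53.9% (wild-normoxia), 55.1% (wild-hypoxia) and 51.4% (mutant-normoxia) of the summed count. How reads that match both copies were divided is not stated in the sources used here, and the sum does not depend on that division.

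None of the 8 other genes compared within 50 kb of the copies was over 2-fold different. Hspa1l, which starts next to Hspa1a on the other strand, was at 151 ± 18.1 (wild-normoxia), 146 ± 18.9 (wild-hypoxia) and 141 ± 18.8 (mutant-normoxia) fragments. Ehmt2, a histone methyltransferase gene, Neu1, a lysosomal sialidase gene, Lsm2, an RNA processing gene, and Vars, the valyl-tRNA synthetase gene, had log2 ratios to wild-normoxia between -0.08 (Lsm2 in mutant-normoxia) and 0.17 (Vars in mutant-normoxia). Fewer fragments than in wild-normoxia were counted for 1110038B12Rik, at 518 ± 38.8 (wild-normoxia), 415 ± 38.02 (wild-hypoxia) and 473 ± 41.5 (mutant-normoxia). Gm10501 was also lower, at 29.02 ± 10.6, 21.2 ± 8.63 and 24.02 ± 9.47 fragments in the same order, within its model errors. The rise of the copies was therefore not seen in the other genes compared within 50 kb, and genes further away were not tested. The antisense gene Gm20481 overlaps Hspa1a and was at 1.97 (wild-normoxia), 1.72 (wild-hypoxia) and 4.83 (mutant-normoxia) fragments, and the sources used here do not state whether counting used strand.

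The cytosolic partners of HSP70 and HSP90 did not share this pattern. Hspa8 was at 715 ± 50 (wild-normoxia), 659.8 ± 54.7 (wild-hypoxia) and 633 ± 52.2 (mutant-normoxia) fragments, the lowest ratio of a member in mutant-normoxia (log2 -0.18 ± 0.16). Hsp90aa1, which Hsf1 also controls, was at 1874 ± 119, 1961 ± 142 and 1885 ± 137 fragments. Hsp90ab1 was at 53963 ± 6105, 55897 ± 7384 and 54253 ± 7043 fragments. The groups lay within their model errors for both HSP90 genes. Hsph1, the exchange factor of HSP70, was at 2015 ± 129 (wild-normoxia), 1812 ± 132 (wild-hypoxia) and 1896 ± 138 (mutant-normoxia) fragments, the lowest ratio of a member in wild-hypoxia (log2 -0.15 ± 0.14). Dnajb1, the HSP40 partner that is among the heat-inducible genes, was at 1429 ± 91.0, 1511 ± 112 and 1445 ± 107 fragments.

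Hspb1 and the 2 members that act in organelles, Hspa5 and Hspd1, also stayed within 0.32 of wild-normoxia on the log2 scale. Hspb1, which binds unfolded proteins without ATP, was at 880.4 ± 59.7 (wild-normoxia), 993 ± 76.2 (wild-hypoxia) and 915 ± 71.0 (mutant-normoxia) fragments, and its log2 ratio of 0.17 ± 0.15 in wild-hypoxia was the highest after the HSP70 copies. Hspa5, a target of the unfolded protein response, was at 22267 ± 1883, 20746 ± 2007 and 21734 ± 2104 fragments. Hspd1 was at 4236 ± 283, 3926 ± 308 and 4184 ± 325 fragments, and its partner Hspe1 at 353 ± 87.0, 386 ± 111 and 378 ± 102. Hspb1 and Hspd1, with ratios near 1, are genes for which pairs or runs of heat shock elements are shown above. In Hspd1 these lie before the second of 2 starts, and the window of the first start held 0. Whether the elements bear on the ratios was not tested.

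Against all genes, the members over 2-fold were the 2 HSP70 copies. Of the 17204 genes compared, 2.99% were over 2-fold in either direction in wild-hypoxia against wild-normoxia and 1.08% were over 2-fold higher, and the members gave 2 of 10, both higher. In mutant-normoxia against wild-normoxia the shares were 2.08% in either direction and 1.59% higher, and again 2 of 10 members were higher. In wild-hypoxia against mutant-normoxia 1.97% of genes were over 2-fold, and 0 of 10 members were. Since the list was chosen with these ratios known, nothing is read from these counts. With a smaller threshold, a log2 ratio over 0.32 in either direction, which 18.2%, 14.2% and 13.5% of all genes passed in the 3 comparisons, the members again gave 2, 2 and 0 of 10. The other 8 members lay between log2 -0.15 and 0.17 in wild-hypoxia and between -0.18 and 0.05 in mutant-normoxia, with 4 above 0 and 4 below 0 in each. Their median was -0.03 under hypoxia and -0.01 in the mutant, beside -0.02 and -0.01 over all genes.

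**Figure D2:**
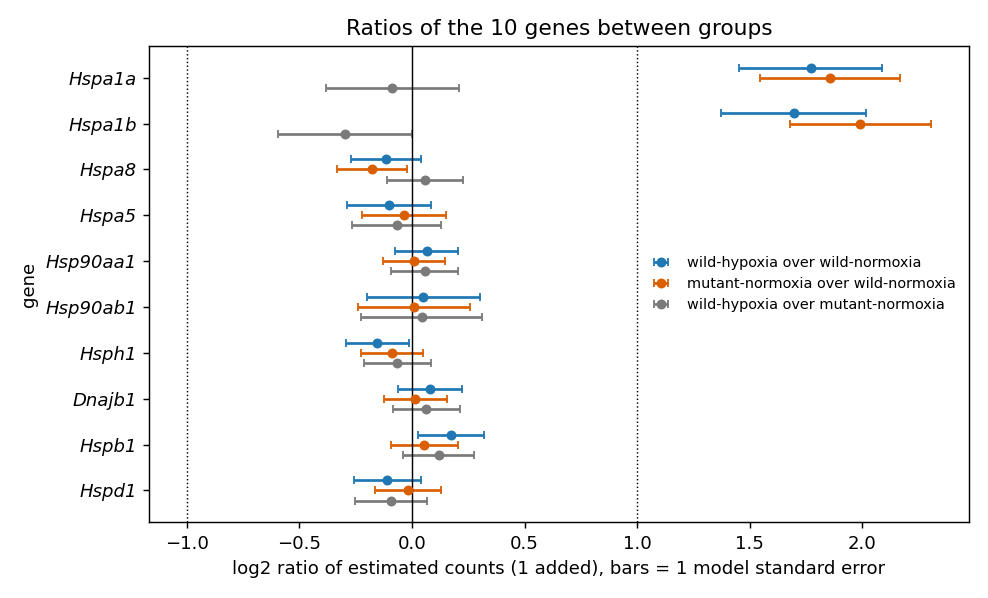
Log2 ratio of the estimated counts (1 added to each) between groups for the 10 genes. Points are ratios, bars 1 model standard error, and dotted lines mark 2-fold. Hspa1a and Hspa1b lie between 1.69 and 1.99 in both comparisons with wild-normoxia, and the other 8 genes lie near 0 in all 3.

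Of the 10 members, 6 share most of their 40-base windows with other places in the genome. The share was 78.0% for Hspa8, 75.5% for Hsp90aa1, 67.3% for Hspb1, 65.6% for Hspa1b, 65.3% for Hspd1 and 63.8% for Hspa1a. It was 13.8% for Hsp90ab1, 1.26% for Dnajb1 and 0% for Hspa5 and Hsph1. Over 135 chaperone and related genes the median was 0%, and 10 genes were over 50%. The levels of these 6 members, and their place in the order above, may depend on how reads with several matches were counted, which was not tested. The ratios between groups of the 4 members with a share below 15% (Hsp90ab1, Dnajb1, Hspa5 and Hsph1) lay between log2 -0.15 and 0.08.

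**Figure D3:**
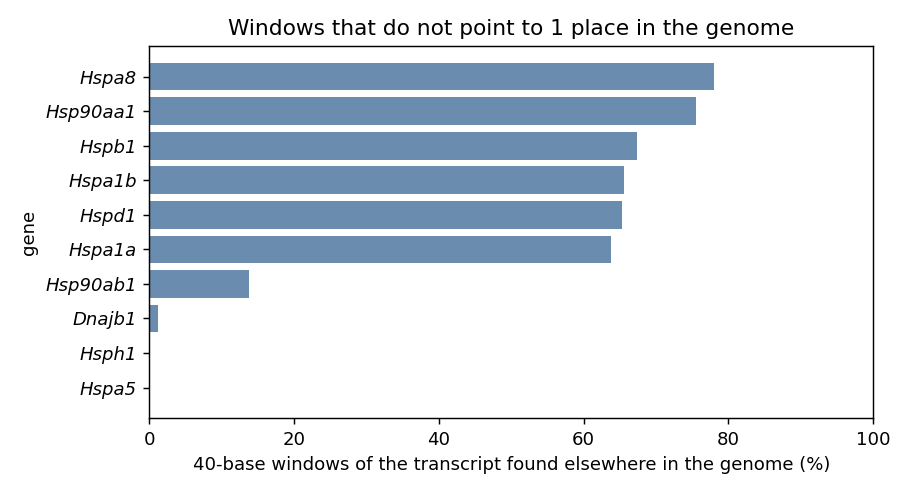
Share (%) of the 40-base windows of each gene's longest protein-coding transcript that also occur outside the gene on the chromosomes of NCBIM37, on either strand. Bars run from 0% for Hspa5 and Hsph1 to 78.0% for Hspa8, and both inducible HSP70 copies lie above 60%.

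Among 135 chaperones, co-chaperones and heat shock genes in the wider lists, 131 were compared. In wild-hypoxia 3 were over 2-fold higher and 0 lower, and the same count held in mutant-normoxia, beside 1.08% and 1.59% of all genes over 2-fold higher. In both they were Hspa1a, Hspa1b and Cryaa, a small heat shock protein of the lens. Cryaa was at 0.39 (wild-normoxia), 15.3 ± 4.47 (wild-hypoxia) and 24.2 ± 6.58 (mutant-normoxia) fragments, so its wild-normoxia value is too low for a ratio. At the smaller threshold of 0.32, 7 of 131 were higher and 1 lower in wild-hypoxia (6.11%, beside 18.2% of all genes), and 6 were higher and 1 lower in mutant-normoxia (5.34%, beside 14.2%). Of the 17204 genes compared, 11742 had at least 100 fragments in every group. The shares here and in the lists below were not matched for level, and their difference from all genes was not tested. The median log2 ratio of the 131 was -0.0015 under hypoxia and 0.00028 in the mutant.

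In the list of 15 HSP70 and HSP110 genes, the copies were the 2 over 2-fold, and the median of the remaining 13 was log2 -0.06 under hypoxia and -0.02 in the mutant. Hspa4l, an HSP110 gene named after its values were seen, was the 1 gene lower by over 0.32 in wild-hypoxia, at 1423 ± 91.5 (wild-normoxia), 1137 ± 85.8 (wild-hypoxia) and 1150.2 ± 86.6 (mutant-normoxia) fragments. In the 4 HSP90 genes the ratios to wild-normoxia lay between log2 -0.13 (Hsp90b1 of the endoplasmic reticulum in wild-hypoxia) and 0.07 (Hsp90aa1 in wild-hypoxia). Of 41 HSP40 genes compared, 0 were over 2-fold, with a median of log2 -0.04 under hypoxia and -0.02 in the mutant. Of all genes, 18.2% in wild-hypoxia and 14.2% in mutant-normoxia passed the threshold of 0.32 in either direction. Of the 41 HSP40 genes, 1 was higher and 0 lower by this threshold in wild-hypoxia, and 2 were higher and 1 lower in mutant-normoxia. Dnajb3, a HSP40 gene known from testis, passed this threshold in both, at 93.3 (wild-normoxia), 133 (wild-hypoxia) and 119 (mutant-normoxia) fragments (log2 0.51 ± 0.27 and 0.34 ± 0.28). The others in mutant-normoxia, named after their values were seen, were Dnajc6 (auxilin), which was higher, and Dnajb13, which was lower. Dnajc6 was at 17.0, 19.9 and 30.0 fragments in the same order of groups. Dnajb13 was at 17.3, 14.7 and 13.2, with model errors larger than these counts (17.4, 24.5 and 20.03). Its ratio in mutant-normoxia, log2 -0.36 ± 2.45, was thus well within its model error. Dnaja4, a HSP40 gene of the cytosol, was at 585 (wild-normoxia), 709 (wild-hypoxia) and 719 (mutant-normoxia) fragments, and Dnajb14, of the endoplasmic reticulum, at 973, 798 and 881. Of 8 small heat shock protein genes compared, only Cryaa, with a wild-normoxia value too low for a ratio, was higher by over 0.32 on the log2 scale in wild-hypoxia.

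The chaperonin, co-chaperone and organelle lists were near 0 as well. None of the 16 chaperonin and prefoldin genes and none of the 20 co-chaperones passed a log2 difference of 0.32 in either comparison with wild-normoxia. Pfdn6, a prefoldin subunit, had log2 ratios of 0.16 ± 0.15 under hypoxia and 0.17 ± 0.15 in the mutant. Among the co-chaperones, Chordc1, which binds HSP90, was at log2 -0.30 ± 0.15 under hypoxia and -0.12 ± 0.14 in the mutant, and Bag1, an exchange factor of HSP70, at 0.24 ± 0.14 and 0.21 ± 0.14. None of the 19 endoplasmic reticulum chaperones passed this difference. Canx (calnexin) was at log2 -0.24 ± 0.16 under hypoxia and -0.11 ± 0.16 in the mutant, Dnajc3, a co-chaperone of Hspa5, at -0.21 ± 0.14 and -0.13 ± 0.14, and the stress factor Ddit3 (CHOP) at -0.24 ± 0.39 and -0.03 ± 0.36. Of 11 mitochondrial chaperones, 1 was higher by over 0.32 on the log2 scale in each comparison, Hscb, a co-chaperone of iron-sulfur cluster delivery, at 209 (wild-normoxia), 292 (wild-hypoxia) and 264 (mutant-normoxia) fragments. Of all genes, 18.2% passed this difference in either direction in wild-hypoxia and 14.2% in mutant-normoxia.

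Of 25 genes that heat shock factor 1 is known to induce, 4 were higher by over 0.32 on the log2 scale and 1 lower in wild-hypoxia, where 18.2% of all genes passed this threshold in either direction. In mutant-normoxia 2 were higher and 0 lower, beside 14.2% of all genes, and the 2 were the HSP70 copies. Without the copies, the median of the remaining 23 was log2 0.05 under hypoxia and 0.01 in the mutant. Their highest ratio was log2 0.81 ± 0.36 in wild-hypoxia, for Ubb, a polyubiquitin gene named after its values were seen. Ubb was at only 28.9 (wild-normoxia), 51.4 (wild-hypoxia) and 29.2 (mutant-normoxia) fragments. Of its 40-base windows, 64.0% also occurred elsewhere in the genome. Its values may depend on how reads with several matches were counted, which was not tested. Hsf1 was at 839 (wild-normoxia), 798 (wild-hypoxia) and 802 (mutant-normoxia) fragments. Hsf2, a factor active in development, had log2 ratios of -0.26 ± 0.15 and -0.21 ± 0.15. The activity of these factors lies in their protein and is not measured by their transcripts.

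**Figure D4:**
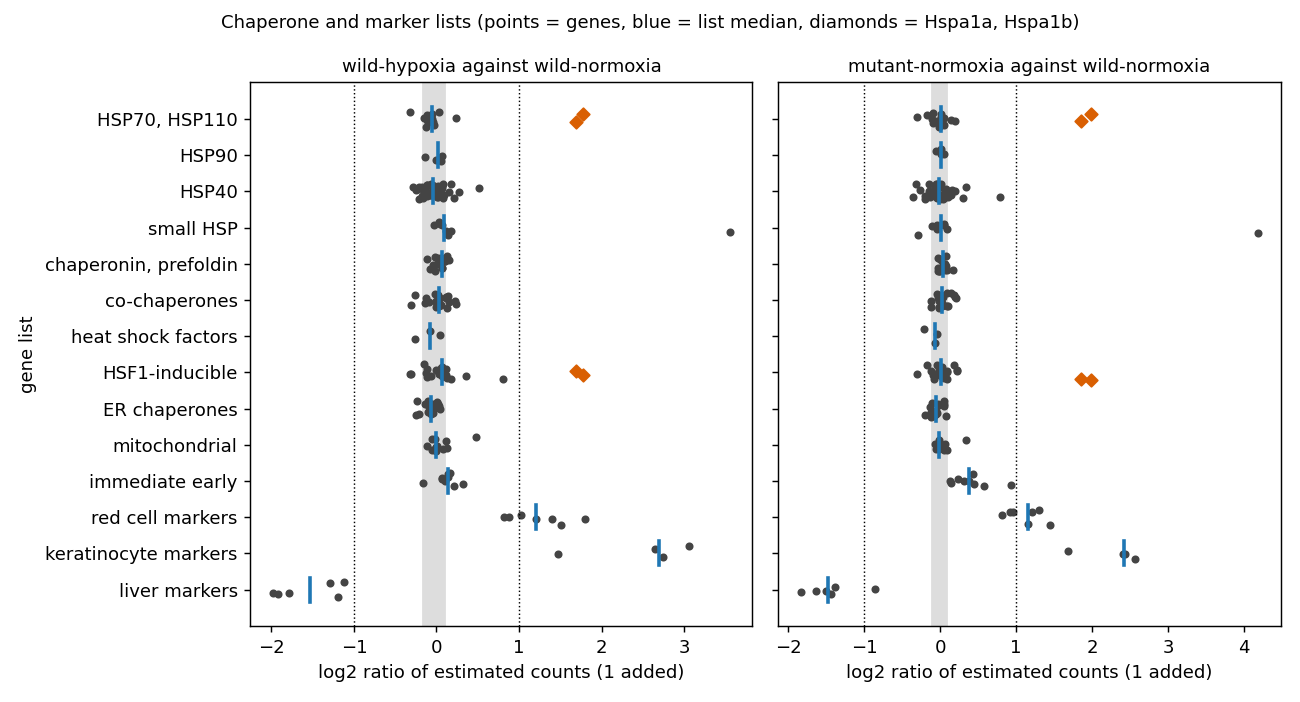
Log2 ratios to wild-normoxia (1 added to each count) of the genes in each list, for wild-hypoxia on the left and mutant-normoxia on the right. Points are genes, diamonds Hspa1a and Hspa1b, blue lines list medians, the grey band the middle 50% of all genes, and dotted lines 2-fold. The chaperone lists centre on 0 apart from the HSP70 copies and Cryaa, while red cell and keratinocyte markers lie to the right and liver markers to the left.

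Markers of other cell types moved in the same groups as the HSP70 copies. The 7 red cell markers compared summed to 12186 (wild-normoxia), 33149 (wild-hypoxia) and 28686 (mutant-normoxia) fragments, and 7 of 7 were higher by over 0.32 on the log2 scale in each comparison. The keratinocyte markers summed to 242, 1588 and 1256 fragments, and 4 of 4 compared were over 2-fold higher in each. The 6 liver markers summed to 4096, 1339.8 and 1502 fragments, and 6 of 6 were over 2-fold lower in wild-hypoxia and 5 of 6 in mutant-normoxia. Sums of the 5 macrophage markers were 1158, 1048 and 844 fragments, and those of the 5 endothelial markers 20784, 22202 and 20256. In mutant-normoxia 1 of the 5 macrophage markers, Lyz2, was lower by over 0.32 on the log2 scale and 0 were higher. Lyz2 was at 504 (wild-normoxia), 405 (wild-hypoxia) and 148 (mutant-normoxia) fragments. The median log2 ratio of the 5 macrophage markers in mutant-normoxia was 0.05. The 5 neural markers compared summed to 869, 656 and 1048 fragments, of which Tubb3, with a model error larger than its count (490.2 ± 770 fragments in wild-normoxia), held the most. Of these 5, 3 were over 2-fold lower in wild-hypoxia (median log2 -1.34) and 1 in mutant-normoxia (median 0.25). None of the listed markers in the table was at 0 in all groups, which holds for the defining genes Krt5 (113, 950.3 and 675 fragments), Alas2 (2743, 9537 and 7489) and Afp (2164, 570.5 and 762). The part of these cell types in the values of Hspa1a and Hspa1b was not tested.

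By the distance of the 2 ratios to wild-normoxia, the 6 named genes most like the summed copies, among 11406 with a mean of at least 100 fragments, were Wnt7b, Cxcl14, Hsd3b6, Hbb-bh0, Hbb-b2 and Fam46c. Wnt7b, a secreted signal, was at 77.2 (wild-normoxia), 234 (wild-hypoxia) and 310.5 (mutant-normoxia) fragments, at a distance of 0.17 on the log2 scale. Cxcl14, a chemokine, was at 141 (wild-normoxia), 535 (wild-hypoxia) and 498 (mutant-normoxia) fragments, at 0.21. The globin genes Hbb-bh0 and Hbb-b2 were at distances of 0.36 and 0.43. The paper's supplement gives the identifier of Hbb-b2 the name Hbb-bt. That name was in the red cell list but was not matched, so Hbb-b2 is itself a red cell marker of that list. Likeness over 2 ratios that share wild-normoxia is a weak measure and says nothing of shared control.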

How the data were processed

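Poly-adenylated RNA of 10 samples was sequenced as single-end reads of 40 bases. The authors used FastQC, Bowtie2, TopHat and Cufflinks with the build mm9, per the submitters' processing notes; the sources used here give neither their versions nor the annotation release. The authors deposited estimated counts, a single value for every gene in each group, beside a model variance and a status. Samples were grouped from the labels. As no sample values are in the table, the planned fallback was used: log2 ratios after adding a pseudocount of 1, with a model standard error by the delta method, from the variance divided by the number of samples (4, 3 and 3), and no test. The 17204 genes with an estimate in all groups and at least 10 fragments in some group were compared. The ratio code was tested on simulated data.

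The members and the gene lists were chosen with earlier results of these data known. Named genes were all members, from each wider list the genes over 2-fold or otherwise up to 3 with the largest ratios in each comparison with wild-normoxia at a mean of at least 100 fragments, Hsf1 and Hsf2, up to 3 markers of each cell type by mean count, and the 6 genes nearest to the summed copies. The 6 nearest genes were sought outside all these lists. Not every gene that the rule allows is printed. Lengths, positions and 40-base windows came from NCBIM37 with GENCODE M1, scanned over 22 chromosomes, and promoter letters from RefSeq on GRCm38.p6. The annotation behind the table may not be that of mm9, so these coordinates describe the reference and not the table. Python 3.11.15, numpy 2.4.6 and pandas 2.3.3 were used.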

Additional observations from a re-analysis of the deposited data

How the results depend on the processing

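The counts of members over 2-fold (2, 2 and 0 in wild-hypoxia and mutant-normoxia against wild-normoxia and in wild-hypoxia against mutant-normoxia) were the same with pseudocounts of 10 and 0.1, after subtracting the median log2 ratio, after dividing by table totals, with a minimum of 50 fragments or none, and with a fold of 1.5 or a log2 ratio of 0.32 as the threshold. With the near-identical copies summed and counted as 1 member, the count was 1 in each comparison with wild-normoxia. In the wider chaperone lists, a minimum of 50 fragments lowered the genes over 2-fold from 3 to 2 in each comparison with wild-normoxia. All 231 alternative values of the members and the summed copies moved by less than 1 model standard error. Many of these could not move. Every member had over 50 fragments in some group, so the changes of minimum could alter neither these ratios nor the counts of members. The undivided variance enters only the error. The pseudocounts and the scalings alone could move the ratios. The summed log2 ratio ranged from 1.64 to 1.76 in wild-hypoxia and from 1.82 to 1.95 in mutant-normoxia. With the model variance not divided by the number of samples, its errors were 0.43 and 0.42. The order of levels did not change with the length of the longest protein-coding transcript, an alternative chosen after seeing the data. No paired analysis was possible because the table holds 1 value per group, and for the same reason leaving out replicates and tests on counts could not be run. The main limits are the missing spread between samples, the low counts of the copies in wild-normoxia and the windows shared between genes.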

Other observations

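Immediate early genes, which respond to many stimuli and to handling of tissue, were described beside the chaperones as another group of quickly induced transcripts. In mutant-normoxia 5 of 9 were higher by over 0.32 on the log2 scale than in wild-normoxia and 0 lower, with a median log2 ratio of 0.37, beside 14.2% of all genes past that threshold in either direction. In wild-hypoxia 1 of 9 was higher and 0 lower, with a median of 0.14, beside 18.2% of all genes. The 1 gene was Junb, at 292 (wild-normoxia), 366 (wild-hypoxia) and 396 (mutant-normoxia) fragments. Its log2 ratio in wild-hypoxia, 0.327, was barely over the threshold (0.322 before rounding). The model standard error of Junb in wild-normoxia was 0.5 fragments, beside 16.7 for Fos, which is too small to take as its error. Fos was at 150.5 (wild-normoxia), 158 (wild-hypoxia) and 288 (mutant-normoxia) fragments. Egr1 was at 903 (wild-normoxia), 807 (wild-hypoxia) and 1352 (mutant-normoxia) fragments.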
